A study of Mus musculus with 15 samples.

Results

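Kupffer cells are the resident macrophages of the liver. They line the sinusoids, take up particles and microbial products from portal blood, and release cytokines that act on neighbouring hepatocytes. The ob/ob mouse makes no functional leptin, overeats from weaning and becomes obese and insulin resistant. Small RNA libraries from ob/ob and wt Kupffer cells of 9-week-old mice were compared here, 7 of the 15 libraries of the series. The wt group is labelled with the strain C57BL/6J (4 libraries) and the ob/ob group with the strain ob/ob (3 libraries). The other 8 libraries are wt and ob/ob Kupffer cells of 14 weeks, 4 each, and serve only as a comparison in separate libraries. No treatment is named for any group, and all 7 libraries of 9 weeks were run in sequencing lane 2. The labels give neither the genetic background of the ob/ob mice nor how the Kupffer cells were isolated. They do not say that replicates are separate animals, so p-values measure only the spread between these libraries.

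miRNAs are short RNAs cut from hairpin precursors, and each hairpin can yield a mature strand from its 5′ arm (-5p) and from its 3′ arm (-3p). A mature strand loaded into Argonaute pairs with messenger RNAs mainly through its seed, bases 2 to 8 counted from the 5′ end, and lowers their translation and stability. miRNAs with the same seed form a family with largely shared targets. In macrophages, miR-142 and miR-223 are known lineage miRNAs, miR-146 and miR-155 are known to be induced by inflammatory signals, and let-7 and miR-125 are known to set cytokine responses.

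The deposited tables list 248 mature miRNAs in reads per 1000000 (RPM), of which 218 matched a RefSeq mature sequence (GRCm38.p6). The sequences that carry the comparison are given here with the seed in capitals. Of the 9 miRNAs that were higher in ob/ob on both scales used below, 8 matched, and miR-146a-5p is shown with them because it shares its seed with miR-146b-5p.
miR-144-5p: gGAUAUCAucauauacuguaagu
miR-146b-5p: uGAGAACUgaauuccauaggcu
miR-146a-5p: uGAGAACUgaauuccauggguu
miR-192-5p: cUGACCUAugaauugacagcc
miR-184-3p: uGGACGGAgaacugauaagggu
miR-34a-5p: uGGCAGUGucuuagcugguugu
miR-210-3p: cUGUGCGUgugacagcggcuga
miR-31-5p: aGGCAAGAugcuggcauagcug
miR-582-3p: uAACCUGUugaacaacugaac
Positions are counted from the 5′ end, and a substitution gives the base of the first-named miRNA, the position and the base of the second. miR-146a-5p and miR-146b-5p differ by G18A and U21C, both outside the seed. The next set was lower in ob/ob on both scales and shows how its members are related.
let-7f-5p: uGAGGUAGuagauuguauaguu
let-7d-5p: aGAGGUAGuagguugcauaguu
let-7e-5p: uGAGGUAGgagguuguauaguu
let-7d-3p: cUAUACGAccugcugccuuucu
let-7e-3p: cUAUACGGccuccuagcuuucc
miR-125a-5p: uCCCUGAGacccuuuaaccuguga
miR-423-5p: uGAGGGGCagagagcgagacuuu
miR-423-3p: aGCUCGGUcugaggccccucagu
miR-1964-3p: cCGACUUCugggcuccggcuuu
miR-188-5p: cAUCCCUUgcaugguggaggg
miR-872-3p: uGAACUAUugcaguagccuccu
miR-199a-3p: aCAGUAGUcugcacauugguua
miR-30c-5p: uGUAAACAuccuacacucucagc
The let-7 5p strands carry 1 seed and are told apart by single bases further along: from let-7a-5p, let-7f-5p differs by G12A, let-7e-5p by U9G, let-7c-5p by A19G, and let-7d-5p by U1A and U16C. Values of single let-7 members therefore depend on how near-identical reads were assigned, and the sources used here do not say how. miR-199a-3p and miR-199b-3p have the same mature sequence, so the split between them cannot be read from the sequence at all.

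The libraries differed in scale between the genotypes, and this touches every value below. The 248 listed miRNAs summed to 358422, 330453, 297668 and 358621 RPM in wt and to 230785, 250422 and 246947 RPM in ob/ob. The wt sums thus all lay above the ob/ob sums (exact permutation test, two-sided, p = 0.0571, the smallest that 4 against 3 libraries allow). The smallest step between values gives a depth of 13.4 to 22.8 M reads (M, 1000000) in wt and 25.9 to 33.9 M in ob/ob, again without overlap (exact permutation p = 0.0571). Depth and genotype cannot be told apart in these libraries. No source used here says which reads the denominator of the RPM counts. The listed miRNAs made up 29.8 to 35.9% of it in wt and 23.1 to 25.0% in ob/ob, so the sums and the falls as deposited depend on the rest of it. Each comparison was therefore made on the RPM as deposited and after median-ratio rescaling, which divides a library by its median ratio to the 7-library geometric mean. In bulk libraries, fewer cells of a type and less RNA per cell cannot be told apart either.

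The 10 most abundant miRNAs made up 76.8 ± 0.85% (SD, n = 4) of the listed sum in wt and 76.7 ± 1.76% (n = 3) in ob/ob. The leading one, miR-22-3p, stood at 61428, 46785, 49152 and 56463 RPM in wt and 35387, 52229.9 and 34777 RPM in ob/ob, 15.9 ± 1.29% and 16.8 ± 3.60% of the listed sum. Of these 10, let-7f-5p fell on both scales and miR-26a-5p fell as deposited only (adjusted p = 0.51 after rescaling). The other 8 passed on neither scale, among them the growth-linked miR-16-5p, miR-21a-5p, miR-181a-5p and miR-191-5p. ob/ob replicate 2 stood apart from the other ob/ob libraries among these, with the highest miR-22-3p and miR-21a-5p of the group and the lowest miR-126a-5p (33956, 17434 and 44216 RPM in ob/ob replicates 1 to 3) and miR-10a-5p (21354, 11518 and 26278 RPM).

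**Figure D1:**
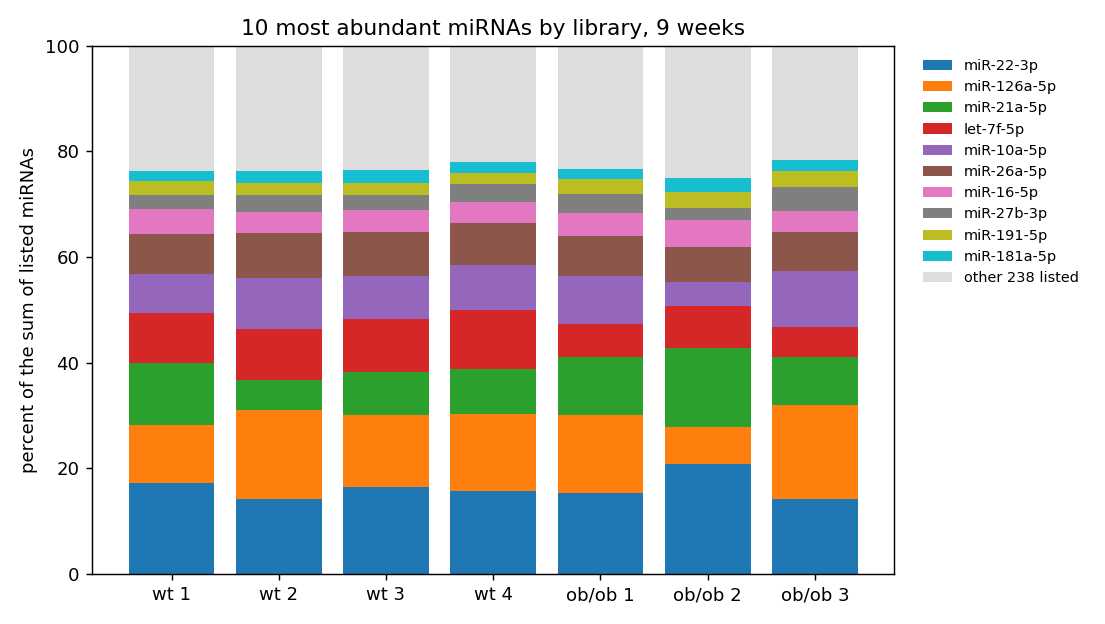
Share of the sum of the 248 listed miRNAs, in percent, taken by each of the 10 most abundant miRNAs and by the other 238, in each of the 7 libraries of 9 weeks. The leading 10 fill about the same share in every library, and ob/ob replicate 2 differs from its group by a larger miR-22-3p and miR-21a-5p share and a smaller miR-126a-5p share.

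Of 179 miRNAs tested as deposited (at least 1 RPM in at least 3 of the 7 libraries), 67 differed (37.4%), 9 rising and 58 falling in ob/ob (5.03% and 32.4%) (limma on log2(RPM + 0.5), Benjamini-Hochberg adjusted p under 0.05). The median log2 fold change over all tested was -0.51, and 73.2% of the fold changes lay below 0. After median-ratio rescaling the median was -0.0017. Then 38 of 177 differed (21.5%), 20 rising and 18 falling (11.3% and 10.2%). With every library set to the same total 35 of 178 did (19.7%), 19 rising and 16 falling (10.7% and 8.99%). The 9 risers as deposited and the 18 fallers after rescaling were called on both scales, and these 27 are the miRNAs whose call does not turn on the choice between the deposited and the median-ratio scale. Another 11 rose after rescaling only, and 40 fell as deposited only. The remaining 69 of the 248 were too low to test, with group means of at most 1.23 RPM.

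**Figure D2:**
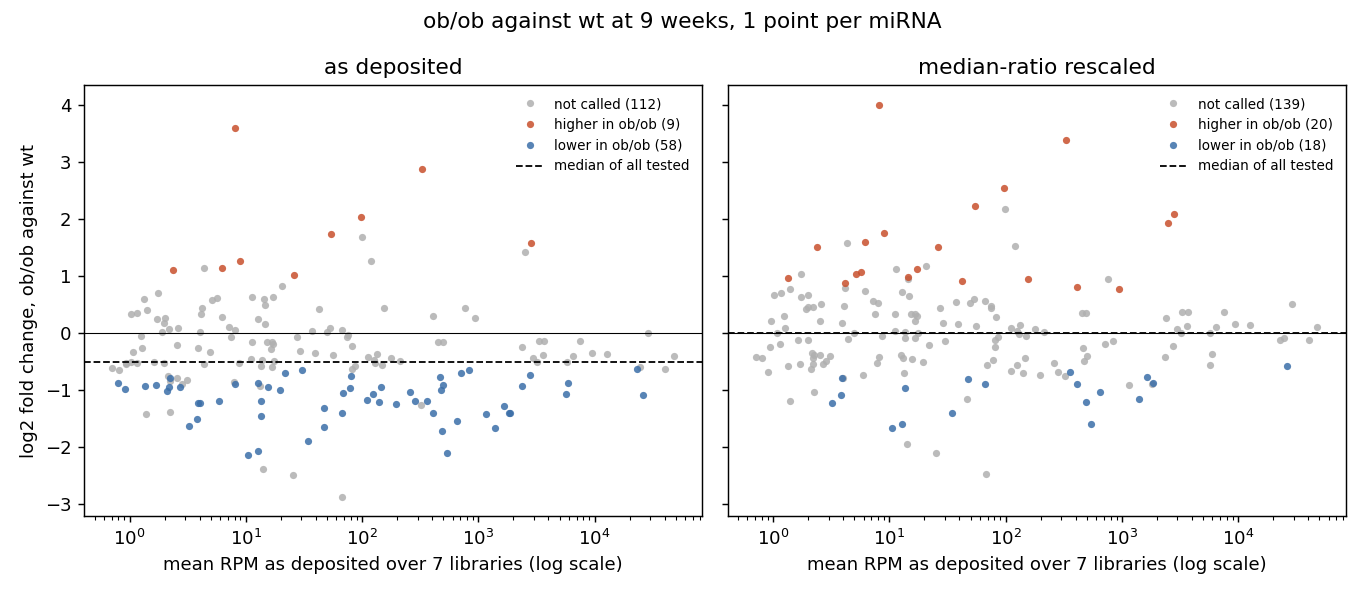
Log2 fold change of ob/ob against wt (vertical axis) against the mean RPM of the 7 libraries (horizontal axis, log scale), 1 point per tested miRNA, as deposited on the left and median-ratio rescaled on the right. The dashed line is the median of all tested, -0.51 on the left and near 0 on the right, where 20 miRNAs are called higher and 18 lower.

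The largest rise was that of miR-144-5p, a strand of the erythroid hairpin miR-144 that GATA1 activates in red cell precursors (chr11:78073010-78073032, plus strand, outside annotated genes on that strand). It stood at 1.49, 0.521, 1.28 and 0.839 RPM in the 4 wt libraries and at 21.7, 16.3 and 14.7 RPM in the 3 ob/ob libraries. Every ob/ob library was near the others and far above every wt library, and the log2 fold change with its SE was 3.59 ± 0.29 as deposited (adjusted p = 0.000266, limma) and 4.0 ± 0.28 rescaled (adjusted p = 0.00013). It was the only one of the 5 erythroid miRNAs of the marker list among the 248, and the others on that list were strands of miR-486. The level of other erythroid miRNAs was therefore not analysed here. Whether red cell RNA in the preparations contributes to the rise was not tested.

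Of the 4 tested hepatocyte miRNAs, 2 rose as deposited, where 5.03% of all tested rose, and 3 after rescaling, where 11.3% did. miR-192-5p, a miRNA of liver, gut and kidney epithelia (chr19:6264857-6264877, plus strand, outside annotated genes), stood at 1828, 978, 1410.2 and 2007 RPM in wt and 3687, 4647 and 5148 RPM in ob/ob. The groups did not overlap (log2 fold change 1.57 ± 0.27, adjusted p = 0.00529, and 2.08 ± 0.27, adjusted p = 0.00589, rescaled). miR-122-5p, the dominant miRNA of hepatocytes, was at 73.1, 18.4, 24.2 and 69.4 RPM in wt and 113, 158 and 228 RPM in ob/ob. wt replicates 1 and 4 held about the same level, well above wt replicates 2 and 3, and all 3 ob/ob libraries were higher still (log2 fold change 2.02 ± 0.55, adjusted p = 0.0244). When ob/ob replicate 2 was left out its adjusted p was 0.0717, and when ob/ob replicate 3 was left out 0.0964, so the call needs both.

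miR-194-5p, which is processed from hairpins beside miR-192 and miR-215, was at 171, 103, 119.8 and 145 RPM in wt and 166, 231 and 148 RPM in ob/ob. Its libraries overlapped as deposited, where it did not pass (adjusted p = 0.195), and it rose after rescaling (log2 fold change 0.93 ± 0.22, adjusted p = 0.0238). miR-215-5p, which shares the seed of miR-192-5p and differs from it by C1A, A12U and C20A, passed on neither scale (52.8, 55.7, 40.4 and 51.3 RPM in wt and 68.8, 29.4 and 73.2 RPM in ob/ob). The 6 listed hepatocyte miRNAs summed to 1156 to 2274 RPM in wt and 4035 to 5598 RPM in ob/ob, most of it miR-192-5p. Over the 4 tested the median log2 fold change was 1.0 as deposited and 1.51 rescaled, against -0.51 and -0.0017 over all tested. Whether hepatocyte RNA in the preparations contributes to these rises was not tested.

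Among 7 tested miRNAs known to be induced by inflammatory signals, 1 rose and 1 fell as deposited and 2 rose after rescaling. Over all tested, 5.03% rose and 32.4% fell as deposited, and 11.3% rose after rescaling. miR-146b-5p, which like miR-146a-5p is switched on by NF-kB and dampens the signalling adaptors TRAF6 and IRAK1, lies in an intron of Mfsd13a (chr19:46342790-46342811, plus strand). It stood at 121, 42.8, 49.5 and 164 RPM in wt and 364, 544 and 1027 RPM in ob/ob. The lowest ob/ob library was above the highest wt library (log2 fold change 2.86 ± 0.57, adjusted p = 0.00917, and 3.37 ± 0.57, adjusted p = 0.0107, rescaled). miR-146a-5p, the more abundant member (chr11:43374435-43374456, minus strand), was at 2172, 679, 824 and 2659 RPM in wt and 2246, 4904 and 4088 RPM in ob/ob. Both members split the wt group in the same way, with wt replicates 1 and 4 above 2 and 3, and for miR-146a-5p ob/ob replicate 1 fell inside the wt range. miR-146a-5p did not pass as deposited (log2 fold change 1.41 ± 0.56, adjusted p = 0.0882) and rose after rescaling (adjusted p = 0.0435), a call that ended when wt replicate 2, wt replicate 3 or any ob/ob library was left out (adjusted p up to 0.181).

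No other inflammation-induced miRNA passed upwards on either scale. miR-155-5p, induced by Toll-like receptor signals, was at 7.07, 6.63, 15.6 and 7.48 RPM in wt and 20.3, 13.8 and 8.91 RPM in ob/ob, overlapping because of wt replicate 3 (adjusted p = 0.221 and 0.081 rescaled). miR-21a-5p, the third most abundant miRNA, was at 42384, 18864, 24509.6 and 30567 RPM and 25392, 37465 and 22213 RPM, with overlapping groups on the deposited scale (log2 fold change -0.01 ± 0.3, adjusted p = 0.977). miR-132-3p fell as deposited (log2 fold change -0.95 ± 0.27, adjusted p = 0.0256) and did not pass after rescaling (adjusted p = 0.201). As deposited its adjusted p reached 0.0763 with single libraries left out, and the call needed wt replicates 1 and 2 and ob/ob replicates 1 and 3.

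Of 3 tested miRNAs known to be induced by p53 or hypoxia, 2 rose on both scales, from low levels. Over all tested, 5.03% rose as deposited and 11.3% after rescaling. miR-34a-5p, a direct target of p53 that represses cell cycle genes and SIRT1 (chr4:150068473-150068494, plus strand), was at 7.11, 3.58, 4.62 and 6.86 RPM in wt and 11.8, 14.4 and 14.5 RPM in ob/ob. The 3 ob/ob libraries lay close together and above all 4 wt libraries (log2 fold change 1.26 ± 0.28, adjusted p = 0.00984, and 1.74 ± 0.26, adjusted p = 0.00817, rescaled). miR-210-3p, which HIF1 activates in low oxygen (chr7:141221407-141221428, minus strand), was at 5.58, 1.94, 4.41 and 4.34 RPM in wt and 9.79, 7.34 and 10 RPM in ob/ob. Its groups did not overlap (log2 fold change 1.13 ± 0.34, adjusted p = 0.0282), but the call ended when wt replicate 4, ob/ob replicate 1 or ob/ob replicate 3 was left out (adjusted p up to 0.0905). The third tested member, miR-34c-5p, was at 1.54 to 2.28 RPM in wt and 1.47 to 2.66 RPM in ob/ob and did not pass (adjusted p = 0.976).

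miR-184-3p, miR-31-5p and miR-582-3p complete the 9 risers. miR-184-3p, best known from the eye, was at 41.1, 18.2, 19.5 and 31.2 RPM in wt and 66.7, 123 and 80.1 RPM in ob/ob, without overlap (log2 fold change 1.72 ± 0.34, adjusted p = 0.00711). miR-31-5p was at 20.5, 12.7, 16 and 22.6 RPM in wt and 35, 49.6 and 26.5 RPM in ob/ob, also without overlap (log2 fold change 1.01 ± 0.29, adjusted p = 0.0244). Its deposited call needed wt replicates 2 and 3 and ob/ob replicates 1 and 2, and ended when one of them was left out (adjusted p up to 0.0655), and no single library ended the rescaled one. miR-582-3p, from an intron of the phosphodiesterase gene Pde4d, was lower than the 10 RPM set for naming and is named here after its values were seen, at 1.14, 2.31, 1.28 and 1.12 RPM in wt and 3.3, 4.33 and 3.22 RPM in ob/ob (log2 fold change 1.1 ± 0.27, adjusted p = 0.014). In all 9 risers the lowest ob/ob library lay above the highest wt library, which held for 7.26% of all tested miRNAs. As deposited, 6 of the 9 stayed called without each of the 7 libraries in turn, and 7 did after rescaling.

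Another 11 miRNAs rose after rescaling only. Apart from miR-146a-5p (rescaled log2 fold change 1.92 ± 0.53), their rescaled log2 fold changes, 0.77 to 1.12, lay below those of the 9 risers on both scales, which began at 1.51. Beside miR-146a-5p and miR-194-5p they were miR-19a-3p, miR-98-5p, miR-141-3p, miR-185-5p, miR-190b-5p, miR-340-5p, miR-345-5p, miR-365-3p and miR-374b-5p. miR-374b-5p, from an intron of the X-linked noncoding RNA gene Ftx, was at 19.8, 9.39, 11.9 and 15.2 RPM in wt and 20.6, 22.9 and 20.1 RPM in ob/ob (adjusted p = 0.103, and 0.0208 rescaled). miR-19a-3p, made from the miR-17-92 transcript, was at 16.4, 9.83, 9.95 and 14.1 RPM in wt and 18.6, 18 and 15.3 RPM in ob/ob (adjusted p = 0.147 and 0.0208). For 8 of the 11 the ob/ob libraries overlapped the wt libraries as deposited. Only for miR-345-5p, miR-365-3p and miR-374b-5p did they not. Leaving out any 1 of several libraries ended the rescaled call for 10 of them, miR-365-3p being the exception.

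**Figure D3:**
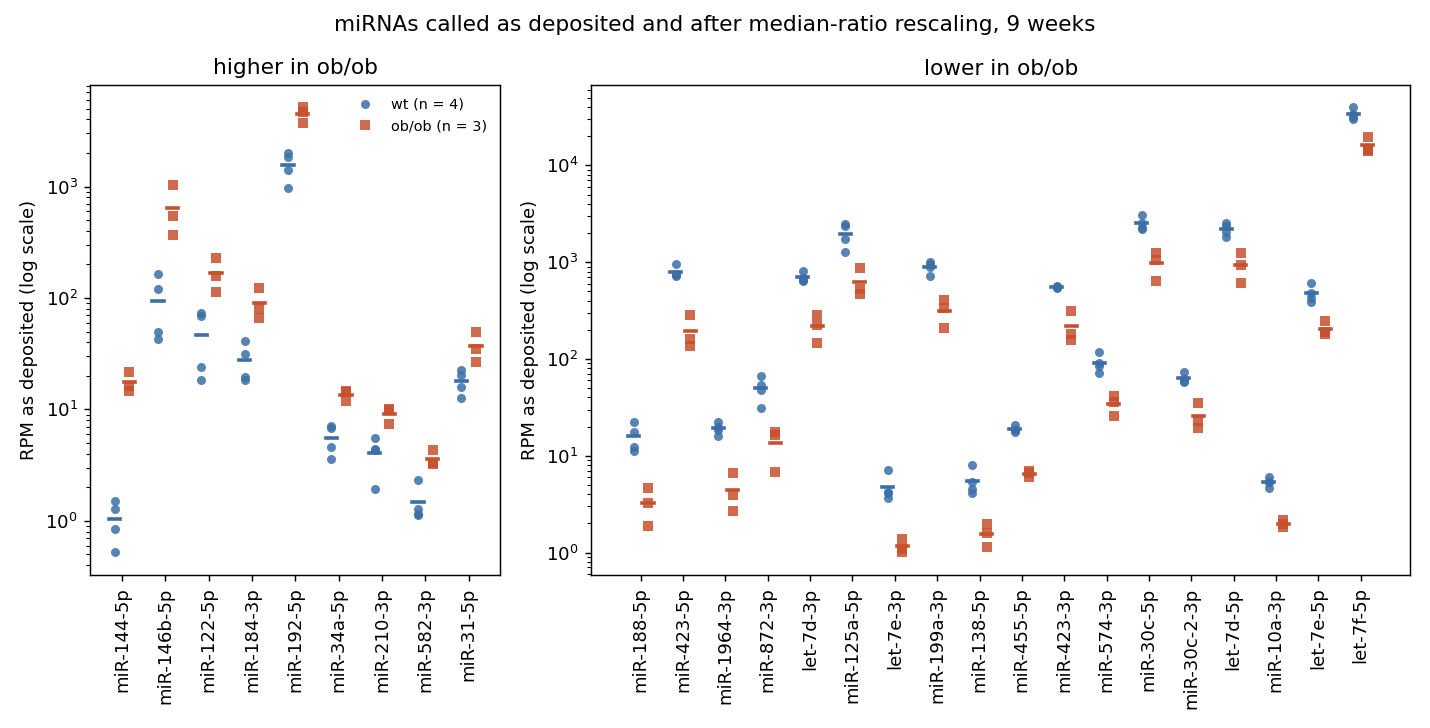
RPM as deposited (log scale) of the 27 miRNAs called both as deposited and after rescaling, in each library, with 4 wt circles and 3 ob/ob squares per miRNA and a bar at each group mean. In none of the 27 do the groups overlap, the 9 risers lying above wt and the 18 fallers below it.

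The 18 fallers on both scales included 5 strands of let-7 hairpins. The 5p strands among them carry the let-7 seed, and that family represses growth regulators such as Hmga2, Lin28 and Ras genes. let-7d-3p and let-7e-3p carry other seeds, so this function is not assigned to them here. let-7f-5p, the most abundant of the 5, was at 33623, 32013, 30101 and 39972 RPM in wt and 14251, 19658 and 14328 RPM in ob/ob. Every ob/ob library held less than every wt library (log2 fold change -1.09 ± 0.18, adjusted p = 0.00501, and -0.58 ± 0.16, adjusted p = 0.0371, rescaled). let-7d-3p, the partner strand of let-7d-5p, had the largest fall of the 5 as deposited. It went from 639, 814, 652 and 683 RPM in wt to 224, 282 and 147 RPM in ob/ob (log2 fold change -1.72 ± 0.25, adjusted p = 0.0039, and -1.21 ± 0.23, adjusted p = 0.0113, rescaled). let-7d-5p stood at 2518, 2361, 2072 and 1836 RPM and 946, 1248 and 609.8 RPM. let-7e-5p and let-7e-3p also fell on both scales (log2 fold changes -1.2 ± 0.22 and -1.64 ± 0.26 as deposited). After rescaling the log2 fold change of let-7e-3p was -1.23, about that of let-7d-3p.

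Of the 9 tested let-7 5p strands, miR-98-5p counted among them, 6 fell and none rose as deposited, where 32.4% of all tested fell. After rescaling 3 fell, where 10.2% of all tested did, and miR-98-5p rose, and with every library set to the same total 1 fell and 1 rose. Their median log2 fold change was -1.0 as deposited and -0.49 rescaled, beside -0.51 and -0.0017 over all tested. miR-98-5p differs from let-7a-5p by G11A and A19U and was at 525, 293, 305 and 392 RPM in wt and 423, 504 and 436 RPM in ob/ob, overlapping as deposited (adjusted p = 0.355). Of 6 tested let-7 3p strands, 4 fell as deposited and 2 rescaled. Summed over the shared seed, the let-7 family stood at 61684, 57983, 52025 and 63762 RPM in wt and 29931, 35688 and 26629.5 RPM in ob/ob. That sum does not depend on how reads were split among members, and it fell on both scales (log2 fold change -0.94 ± 0.14, adjusted p = 0.00244, and -0.43 ± 0.11, adjusted p = 0.0225, rescaled).

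Some of the strands that fell come from hairpins of a shared cluster. Over all tested miRNAs, 32.4% fell as deposited and 10.2% after rescaling. On chromosome 17 the hairpins of let-7e and miR-125a lie within 1 cluster with miR-99b (17830366 to 17830840 for the listed strands, GRCm38.p6), and all 3 tested strands fell on both scales (2 with equal totals). miR-125a-5p, known to restrain inflammatory signalling in macrophages, was at 2381, 2504, 1736 and 1286 RPM in wt and 873, 522 and 470.1 RPM in ob/ob. It varied more within wt than the others, yet no ob/ob library reached the lowest wt value (log2 fold change -1.67 ± 0.31, adjusted p = 0.00543, and -1.16 ± 0.29, adjusted p = 0.0316, rescaled). The cluster of let-7d, let-7f-1 and let-7a-1 on chromosome 13 had 5 tested strands, all 5 lower as deposited and 3 rescaled. Another let-7a hairpin, let-7a-2, lies on chromosome 9, so reads of let-7a-5p need not come from chromosome 13 alone. On chromosome X, let-7f-2 and miR-98 share an intron of Huwe1, and after rescaling let-7f-5p was lower and miR-98-5p higher. let-7f-5p also comes from the chromosome 13 hairpin, and its reads cannot be assigned to either locus. Not every cluster fell: that of miR-450, miR-351 and miR-322 on chromosome X had 5 tested strands, 2 lower as deposited and none rescaled.

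miR-423, from an intron of Nsrp1 (chr11:77078122-77078144 for the 5p strand, minus strand), fell in both strands. miR-423-5p was at 724, 969, 734 and 759 RPM in wt and 159, 285 and 135 RPM in ob/ob, and miR-423-3p at 566, 546, 549.8 and 559 RPM and 181, 316 and 157 RPM. wt replicate 2 stood above the other wt libraries for miR-423-5p, and all ob/ob libraries were below all wt libraries for both strands. The log2 fold change was -2.11 ± 0.28 (adjusted p = 0.0035) for miR-423-5p and -1.41 ± 0.25 (adjusted p = 0.00538) for miR-423-3p as deposited, and -1.6 ± 0.26 (adjusted p = 0.00969) and -0.91 ± 0.23 (adjusted p = 0.0337) rescaled.

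Of the other fallers on both scales in introns of protein-coding genes, 4 are given by library. miR-1964-3p (intron of Zfp84) was at 19.7, 18.6, 15.9 and 22.5 RPM in wt and 3.96, 6.57 and 2.65 RPM in ob/ob (log2 fold change -2.08 ± 0.3, adjusted p = 0.0039). miR-188-5p (intron of the chloride transporter gene Clcn5) was at 12.3, 22.1, 17.7 and 11.3 RPM and 3.21, 4.67 and 1.89 RPM (log2 fold change -2.14 ± 0.34, adjusted p = 0.00485). In both the highest ob/ob library, replicate 2, was well under the lowest wt library. miR-455-5p (intron of the collagen gene Col27a1) was at 18.4, 17.4, 18.6 and 20.8 RPM and 6.01, 7.03 and 6.61 RPM, with the narrowest groups of the 4. miR-872-3p (intron of Ift74, which acts in cilium transport) was at 47.8, 67.4, 54.3 and 31.3 RPM and 16.3, 17.7 and 6.76 RPM, and the ratio to its partner strand is given with the arm ratios. The hairpins of miR-188 and miR-532 form 1 cluster on chromosome X, and miR-532-3p fell as deposited only.

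The remaining fallers on both scales were miR-138-5p, miR-199a-3p, miR-574-3p, miR-10a-3p, miR-30c-5p and miR-30c-2-3p. miR-30c-5p, of a family known to restrain Notch signalling and fibrosis genes, was at 2239, 3065, 2546 and 2197 RPM in wt and 1065, 1234 and 638 RPM in ob/ob. The groups did not overlap (log2 fold change -1.4 ± 0.26, adjusted p = 0.00538, and -0.89 ± 0.24, adjusted p = 0.0371, rescaled). Of 9 tested miR-30 strands 3 fell as deposited, close to the 32.4% of all tested, and 2 rescaled, where 10.2% of all tested did. Their median log2 fold change was -0.51 as deposited and -0.01 rescaled, near that of all tested. The third strand lower as deposited was miR-30b-5p (adjusted p = 0.0102 and 0.0628), and miR-30a-5p passed on neither scale (adjusted p = 0.0528 and 0.996). In all 18 fallers the groups did not overlap, which held in that direction for 41.3% of all tested as deposited and 21.5% rescaled. As deposited all 18 stayed called without each library in turn. After rescaling 5 did: miR-423-5p, miR-1964-3p, miR-455-5p, let-7d-3p and let-7e-3p, and the number of rescaled calls over all miRNAs fell from 38 to between 16 and 22 when any of 5 libraries (wt replicates 2 to 4, ob/ob replicates 1 and 3) was left out.

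The 40 miRNAs that fell as deposited only did not pass once the scale was set by the median. They included miR-26a-5p, let-7a-5p, let-7c-5p, miR-92a-3p and miR-222-3p, and miR-674-3p was the named one with the largest fall (99.3, 61.1, 59.7 and 42.7 RPM in wt and 21.6, 30.7 and 11.1 RPM in ob/ob, adjusted p = 0.012, and 0.0534 rescaled). miR-26a-5p shows the pattern in an abundant miRNA, at 26922, 28029.5, 24618 and 28742 RPM in wt and 17465, 16617 and 18260.2 RPM in ob/ob. Its groups were tight and did not overlap as deposited, and its log2 fold change went from -0.63 ± 0.13 to -0.12 ± 0.13 (adjusted p = 0.51) with rescaling. miR-151-5p, at 1789, 1628, 1328 and 1434 RPM in wt and 919, 759 and 271 RPM in ob/ob, was lowest in ob/ob replicate 3 and passed as deposited only (adjusted p = 0.0227 and 0.112).

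The labelled cell type was checked against lineage miRNAs. miR-142a-5p, made in all blood lineages, was at 3873, 2975, 3441 and 4320.1 RPM in wt and 2060.0, 3171 and 2532 RPM in ob/ob and passed on neither scale (adjusted p = 0.0895 and 0.996). miR-511-3p, hosted by the mannose receptor gene Mrc1, was present at 168, 169, 154 and 145 RPM in wt and 78.9, 101 and 53.6 RPM in ob/ob. It fell as deposited (adjusted p = 0.00984) and did not pass after rescaling (adjusted p = 0.086). Of the 5 miRNAs on the myeloid list, 3 were among the 248 and 2 were tested. miR-142a-3p was listed but too low to test, and miR-223-5p and miR-511-5p were not listed. The 3 listed myeloid miRNAs summed to 3144 to 4465 RPM in wt and 2139 to 3272 RPM in ob/ob, nearly all of it miR-142a-5p. The muscle list had none of its 4 members among the 248.

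Markers of other liver cells were also present. The second most abundant miRNA, miR-126a-5p, is known from endothelial cells, and with miR-126a-3p it summed to 42296 to 59286 RPM in wt and 18455 to 45923 RPM in ob/ob, overlapping because of ob/ob replicate 3. The share of miR-126a-5p in the listed sum was 14.0% in wt and 13.2% in ob/ob. miR-126a-3p fell as deposited (adjusted p = 0.023) and did not pass after rescaling (adjusted p = 0.273), and leaving out wt replicate 2 or 4 ended its deposited call (adjusted p up to 0.0639). The 7 listed stellate and mesenchymal miRNAs summed to 1385 to 1885 RPM in wt and 1033 to 1644 RPM in ob/ob. Of 6 tested, 3 were lower as deposited and 1, miR-199a-3p, rescaled, beside 32.4% and 10.2% of all tested.

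miR-199a-3p, processed from the antisense RNA Dnm3os and a second locus, was at 726, 1016, 902 and 964 RPM in wt and 403, 207 and 340.1 RPM in ob/ob. Because miR-199b-3p is identical in sequence, the sum of both is the firmer value, at 835, 1219, 902 and 1042 RPM in wt and 534, 305 and 414 RPM in ob/ob (log2 fold change -1.28 ± 0.23, adjusted p = 0.00389, and -0.77 ± 0.24, adjusted p = 0.0458, rescaled). miR-143-3p, of the same list and of smooth muscle, had 926, 474, 457 and 827 RPM in wt and 733, 715 and 1222 RPM in ob/ob and passed on neither scale (adjusted p = 0.0715 rescaled), with fold changes in the opposite direction. Biliary and epithelial miRNAs summed to 52.1 to 71.5 RPM in wt and 55.5 to 89 RPM in ob/ob, and of 4 tested only miR-141-3p passed, upwards and after rescaling only (adjusted p = 0.0435). Lymphocyte miRNAs summed to 7421 to 7649 RPM in wt and 4935 to 6729 RPM in ob/ob, mostly miR-181a-5p, and none of 3 passed on either scale. How far other cell types in the preparations contribute to the differences was not tested.

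As deposited, where 32.4% of all tested fell, 3 of 10 tested miRNAs tied to lipid or insulin control fell and none rose. None of the 10 passed after rescaling. Their median log2 fold change was -0.49 and 0.01, near those of all tested. miR-29c-3p, of a family that represses collagen genes, was at 96.6, 109, 80.9 and 112 RPM in wt and 49.3, 57.8 and 43.7 RPM in ob/ob (adjusted p = 0.00711 and 0.0809 rescaled). miR-103-3p, known to reduce insulin sensitivity, was at 116, 96.5, 79.2 and 63.9 RPM and 37.4, 48.8 and 38.6 RPM (adjusted p = 0.0111 and 0.0852). miR-107-3p, its family partner, passed on neither scale (adjusted p = 0.104 and 0.95). The sequences of miR-103-3p and miR-107-3p are near-identical, so the split between them depends on how reads were assigned. Their seed family sum fell as deposited (log2 fold change -0.69 ± 0.20, limma adjusted p = 0.0222). After rescaling the sum did not pass (-0.18 ± 0.17, limma adjusted p = 0.432).

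Among other families, 2 of 6 tested strands of the miR-15 and miR-16 family fell as deposited, miR-322-5p and miR-497a-5p, close to the share of all tested, and none rescaled. miR-222-3p fell as deposited (354, 378, 383 and 375 RPM in wt and 149.8, 227 and 126 RPM in ob/ob) and did not pass after rescaling (adjusted p = 0.0534). In the miR-10 and miR-99/100 group, 1 of 6 fell on both scales, miR-10a-3p, while the abundant partner strand miR-10a-5p passed on neither (adjusted p = 0.128 and 0.865). Of 4 tested strands of the miR-17-92 group, miR-92a-3p fell as deposited and miR-19a-3p rose after rescaling. None of 4 tested miR-148 and miR-152 strands, 3 of the miR-23, miR-27 and miR-24 clusters and 7 of the imprinted Dlk1-Dio3 cluster passed on either scale.

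Summing over bases 2 to 8 gave 121 testable seed families, of which 54 differed as deposited (44.6%), 8 rising and 46 falling (6.61% and 38%). After rescaling 33 of 118 differed (28%), 16 rising and 17 falling (13.6% and 14.4%). Of the 26 with at least 2 members, 1 rose and 14 fell as deposited, and 4 rose and 4 fell rescaled. The miR-125a, miR-125b and miR-351 family stood at 2775, 3057, 2105 and 1754 RPM in wt and 1127, 649 and 675 RPM in ob/ob. All 3 of its members were lower as deposited, and the family sum fell on both scales (log2 fold change -1.58 ± 0.27, adjusted p = 0.00351, and -1.07 ± 0.25, adjusted p = 0.0156, rescaled). The miR-192 and miR-215 family, almost all miR-192-5p, rose on both scales (adjusted p = 0.00331 and 0.00219). The miR-146a and miR-146b family was at 2292, 721, 874 and 2823 RPM in wt and 2611, 5448 and 5115 RPM in ob/ob (log2 fold change 1.55 ± 0.55, adjusted p = 0.0563), and it rose after rescaling (2.06 ± 0.53, adjusted p = 0.0233).

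The ratio of the strands of 1 hairpin depends on the scaling of a library only through the 0.5 RPM added to each strand, which matters where a strand is near 1 RPM. In 35 hairpins with both strands tested, the 5p to 3p ratio differed in 6 (17.1%), 11.4% towards the 5p strand in ob/ob (miR-185, miR-26b, miR-340 and miR-872) and 5.71% towards the 3p strand (miR-423 and miR-30b). In miR-872 the 5p strand was at 85.9, 66.7, 70.6 and 82.5 RPM in wt and 64.1, 77.4 and 76.8 RPM in ob/ob and passed on neither scale (adjusted p = 0.809 and 0.0925), while the 3p strand fell as given above. The log2 ratio of 5p to 3p moved from 0.65 ± 0.6 (SD) to 2.49 ± 0.81 (difference 1.84 ± 0.48, limma adjusted p = 0.0487). In miR-423, where both strands fell, the ratio moved from 0.51 ± 0.21 to -0.19 ± 0.04 (difference -0.7 ± 0.17, adjusted p = 0.0445), so that the strand with more reads was miR-423-5p in every wt library and miR-423-3p in every ob/ob library.

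In miR-26b the minor 3p strand was at 7.77, 7.82, 9.03 and 7.2 RPM in wt and 3.09, 4.25 and 2.36 RPM in ob/ob beside 3130 to 4641 RPM of miR-26b-5p (difference of the log2 ratio 1.05 ± 0.22, adjusted p = 0.0318). miR-340 moved in the same direction (0.97 ± 0.21, adjusted p = 0.0318), as did miR-185 (1.34 ± 0.28, adjusted p = 0.0318), whose 3p strand was at 0.63 to 3.21 RPM in all libraries. miR-30b moved towards its minor 3p strand (-1.45 ± 0.39, adjusted p = 0.0497). In each of the 6 the wt and ob/ob ratios did not overlap, which held for 20% of the 35 hairpins towards the 5p strand and 5.71% towards the 3p strand. Under median-ratio rescaling or equal totals, added after seeing the data, the 5 others stayed called and miR-30b did not (adjusted p = 0.0537 and 0.0555), nor did it with 0.1 RPM added (adjusted p = 0.0543). None stayed called without each library in turn, and the count fell to 0 without wt replicate 2 or any 1 ob/ob replicate and to 1 without wt replicate 3.

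**Figure D4:**
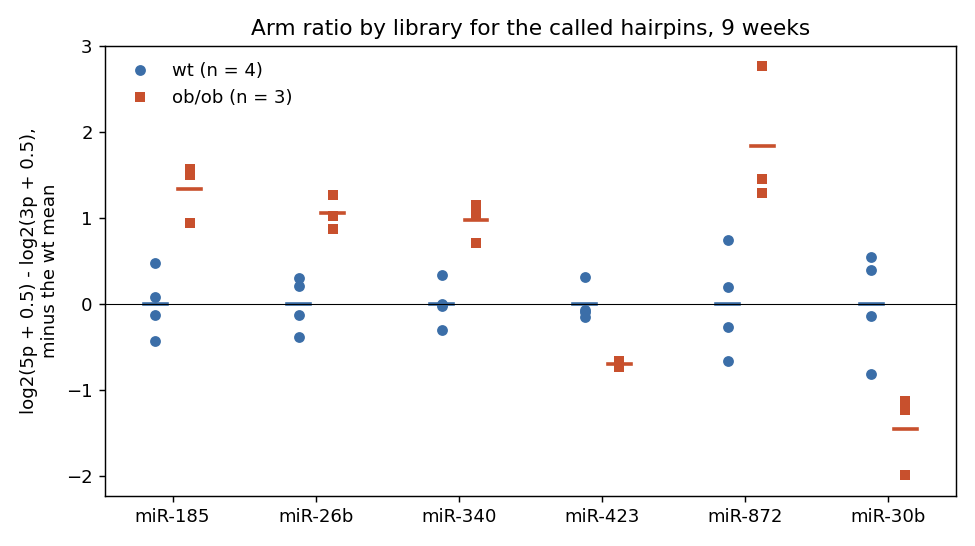
Log2 ratio of the 5p to the 3p strand in each library of 9 weeks, minus the wt mean of that hairpin, for the 6 hairpins whose ratio differed, with 4 wt circles and 3 ob/ob squares per hairpin and a bar at each group mean. The ratio is higher in ob/ob for miR-185, miR-26b, miR-340 and miR-872 and lower for miR-423 and miR-30b, without overlap.

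The median fold change fell with GC content on both scales. As deposited, the median log2 fold change was -0.27 in the low, -0.50 in the middle and -0.58 in the high tercile of GC content. By tercile of GC content of the mature strand, the median log2 fold change after rescaling was 0.20 for 59 miRNAs of 27.3 to 40.9% GC, 0.01 for 52 of 41.7 to 50% and -0.21 for 46 of 52.2 to 69.6%. Calls after rescaling were 11 higher and 5 lower in the low tercile, 4 and 6 in the middle and 3 and 7 in the high one. The risers after rescaling had a median GC content of 40.9% and the fallers of 50%, against 45.5% over all tested with a sequence. The 9 risers on both scales had a median of 48.8%, close to that of the 18 fallers. The part of base composition in the differences was not tested.

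At 14 weeks, in libraries that share none with those of 9 weeks, the ob/ob against wt comparison called 26 of 171 as deposited (15.2%), with 20 up and 6 down (11.7% and 3.51%). Depth again split by genotype without overlap and in the same direction, at 9.1 to 39.0 M reads in wt and 44.0 to 98.1 M in ob/ob. Depth and genotype therefore cannot be told apart at 14 weeks either. One library stood apart: the listed miRNAs of wt replicate 1 summed to 147387 RPM, against 317539 to 353829 RPM in the other wt libraries of that age and 272978 to 333502 RPM in ob/ob. Without it 46 were called, 25 up and 21 down, while without wt replicate 3 the count was 15 and without ob/ob replicate 3 it was 13. Rescaled, it called 48 of 168 (28.6%), 26 higher and 22 lower (15.5% and 13.1%). All 9 risers on both scales at 9 weeks had the same sign at 14 weeks, and 7 were called there too, on either scale. miR-144-5p was at 0.766 ± 0.295 RPM in wt and 21.4 ± 8.73 RPM in ob/ob (SD, n = 4 each, adjusted p = 0.000108). miR-146b-5p was at 86.6 ± 42.2 RPM in wt and 294 ± 135 RPM in ob/ob (adjusted p = 0.0175). The 2 that were not called were miR-184-3p at 44.3 ± 21.2 RPM in wt and 48.7 ± 14.8 RPM in ob/ob (adjusted p = 0.762) and miR-122-5p at 46.7 ± 39.2 RPM in wt and 54.9 ± 17.9 RPM in ob/ob (adjusted p = 0.551).

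Of the 18 fallers on both scales, 16 had the same sign at 14 weeks on either scale, 4 were called lower as deposited and 12 after rescaling. As deposited but without wt replicate 1 of that age, 12 of the 18 were called lower, and 7 of the 9 risers were called higher. miR-423-5p was at 547 ± 58.6 RPM in wt and 147 ± 89.1 RPM in ob/ob (adjusted p = 0.00631 and 0.00507 rescaled). miR-1964-3p, let-7d-3p and let-7e-3p were the other 3 called as deposited. miR-188-5p (8.9 ± 5.62 RPM in wt and 12.1 ± 2.53 RPM in ob/ob) and miR-138-5p (3.58 ± 1.88 RPM in wt and 4.67 ± 0.846 RPM in ob/ob) had the opposite sign and did not pass (adjusted p = 0.396 and 0.448). Of the 20 risers after rescaling, 19 had the same sign after rescaling at 14 weeks and 12 were called, the exception being miR-146a-5p with a log2 fold change of -0.0034 ± 0.43. For comparison, of all 165 miRNAs tested after rescaling at both ages, 82 lay above 0 and 83 below 0 at 14 weeks. As deposited, 102 of the 168 tested at both ages lay above 0 at 14 weeks.

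**Figure D5:**
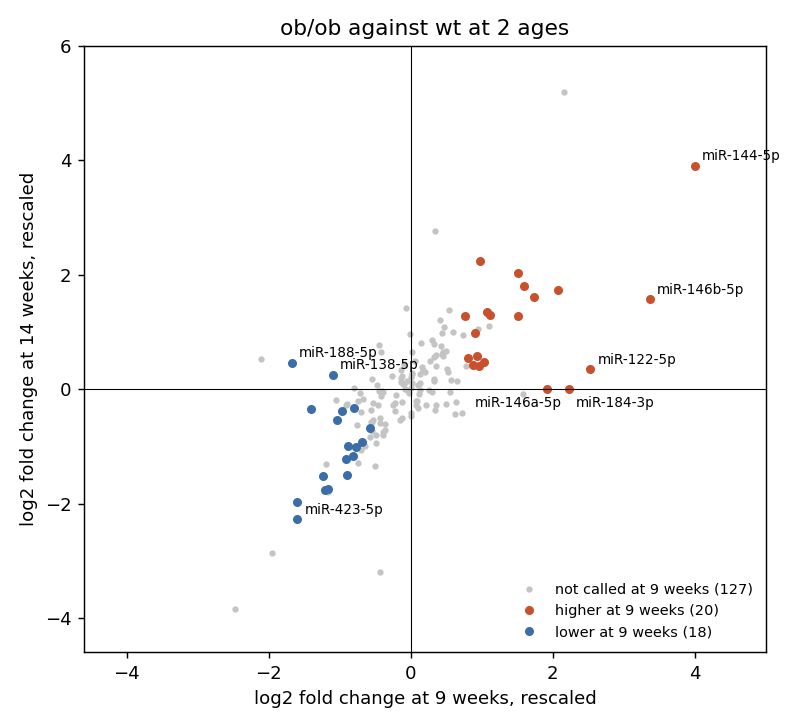
Log2 fold change of ob/ob against wt after median-ratio rescaling at 9 weeks (horizontal axis) and at 14 weeks (vertical axis) for the 165 miRNAs tested at both ages, coloured by their call at 9 weeks. Most of the 20 risers lie in the upper right and most of the 18 fallers in the lower left, with miR-184-3p and miR-146a-5p near 0 at 14 weeks and miR-188-5p and miR-138-5p above 0.

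Whether the genotype difference itself changed with age was tested as an interaction over all 15 libraries. None of 187 miRNAs passed (0%, limma, smallest adjusted p = 0.0510), with 48 at an unadjusted p under 0.05, and after rescaling none passed either (smallest adjusted p = 0.114, 17 at an unadjusted p under 0.05). The miRNAs with the smallest p were miR-188-5p (log2 difference of the ob/ob effect, 9 minus 14 weeks, -2.8 ± 0.64, adjusted p = 0.051), miR-138-5p (-1.96 ± 0.46, adjusted p = 0.051) and miR-19a-3p (-1.97 ± 0.47, adjusted p = 0.051). In the other direction miR-184-3p came first (1.5 ± 0.55, adjusted p = 0.132), followed by miR-146a-5p (1.19 ± 0.68, adjusted p = 0.271) and miR-122-5p (1.46 ± 0.84, adjusted p = 0.271). The outcome turned on the filter for the first of these: miR-188-5p and miR-19a-3p passed with no filter on low values (adjusted p = 0.0487 for both) and with a filter at 10 RPM (0.0427 for both), and miR-138-5p passed with no filter (0.0487). With median-ratio rescaling their adjusted p was 0.114, 0.237 and 0.237 (miR-188-5p, miR-19a-3p and miR-138-5p), and it was 0.0804 for each without wt replicate 1 of 14 weeks, a setting added after seeing the data. A call at 9 weeks and the lack of one at 14 weeks do not by themselves show a difference between the ages. The tables of the ages were deposited separately, so levels across ages rest on both being RPM.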

How the data were processed

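Per the labels' protocols, small RNA was purified by column and sequenced from TruSeq libraries on an Illumina instrument. The builds GRCm38.p5 and mm10 and the tools cutadapt and bcl2fastq appear in the submitters' processing notes. The sources used here do not name the aligner, the counting tool or the miRNA annotation. The authors deposited 1 table per age, and its values were taken as RPM. That unit is inferred: every value above 0 is a whole multiple, within 0.1 of a read, of 1 step per library. Which reads its denominator counts is stated in no source used here. RPM are not counts, so no count model was used. At 9 weeks 1 RPM stands for 13.4 to 33.9 reads, which are not independent molecules.

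log2(RPM + 0.5) was tested with limma 3.58.1 (R 4.3.3, trend and robust, Benjamini-Hochberg, threshold 0.05), on a miRNA with at least 1 RPM in at least 3 libraries at 9 weeks and 4 at 14 weeks. Adjusted p-values in the text are limma's, over all miRNAs, hairpins or families tested. Fold changes on this scale understate changes of rare miRNAs. Median-ratio factors came from miRNAs above 0 in every library with a mean of 5 RPM or more. Sums and depths were compared by exact permutation. Arm ratios were tested with limma, and miRNAs of shared seed were summed. Sequences and positions are from RefSeq (GRCm38.p6), host genes from GENCODE vM21, and hairpins within 10000 bases on a strand form a cluster. The test was also run on simulated data with equal numbers of rises and falls and no difference in scale between genotypes. That run therefore does not cover the scale difference seen as deposited, and its outcome is not given here.

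The members, the 22 lists and the tests were chosen with earlier results of these data known. Named miRNAs were the 12 largest rises and 12 largest falls called as deposited and the 10 largest rises called after rescaling (those whose higher group averaged 10 RPM or more), the 10 most abundant, up to 4 per list by smallest p, called hairpins and families, and 5 per direction of the interaction. Others are named to complete a count. Alternatives were other scalings, pseudocounts, filters, limma settings, leaving out each library, and a replicate block. The check found no clear pairing by replicate number, but it rests on too few libraries to exclude pairing.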

Additional observations from a re-analysis of the deposited data

Results flagged for a closer look

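In 5 of 89 groups of 4 wt libraries examined, 1 library stood far from the other 3 relative to the group's range, and chance alone flags about 1 group in 20. The depth of wt replicate 1, 22.8 M reads (M, 1000000), was well above that of the other wt libraries, which had 13.4 to 14.3 M. miR-423-5p was at 969.3 RPM in wt replicate 2 against 724.1 to 759.0 RPM in the others, on the side away from ob/ob. miR-155-5p was at 15.6 RPM in wt replicate 3 against 6.63 to 7.49 RPM in the others. miR-151-3p was listed at 0 in wt replicate 4 against 3.06 to 4.40 RPM, and miR-99a-3p at 0 in wt replicate 1 against 1.21 to 1.33 RPM.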

How the results depend on the processing

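As deposited 67 miRNAs differed. The count was 38 with median-ratio rescaling and 35 with equal totals, with 9 higher and 58 lower turning into 20 and 18 or 19 and 16. After rescaling, leaving out 1 library gave 16 to 38 calls. Arm ratios went from 6 to 16 without a filter (70 hairpins) and to 3 with a filter at 10 RPM (13 hairpins), to 0 to 7 without 1 library, and to 5 under either rescaling. Seed families went from 54 to 33 with median-ratio rescaling and 31 with equal totals. The interaction called 0 miRNAs, 4 without a filter (miR-138-5p, miR-188-5p, miR-19a-3p and miR-375-3p) and 2 with a filter at 10 RPM (miR-188-5p and miR-19a-3p), the cause not tested. At 14 weeks 26 calls became 48 under either rescaling, and 13 to 46 without 1 library. Of 87 named miRNAs tested, 44 were called as deposited. Of these 19 lost the call with median-ratio rescaling and 21 with equal totals, none did under either other pseudocount (0.1 or 2), no filter or plain limma, and 32 stayed called without each library in turn. None of their 1365 alternative values passed with the opposite sign. Same-numbered libraries did not all deviate together (correlations 0.28, 0.14 and -0.14), and not every library correlated best with its own number. These correlations are too few to exclude pairing. With the replicate block the counts were 32 miRNAs as deposited, 13 rescaled, 0 arm ratios and 25 seed families. Equal depth in both genotypes was not available, so depth limits every comparison.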

Other observations

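miR-20a-5p and miR-92a-1-5p, strands of neighbouring hairpins on chromosome 14, were listed at 0 in the same 3 libraries, wt replicates 2 and 3 and ob/ob replicate 2. In the other 4 libraries miR-20a-5p was at 27.8 to 43.4 RPM and miR-92a-1-5p at 16.4 to 40.8 RPM. miR-151-3p reached 827.4 RPM in ob/ob replicate 3, against 0 to 4.40 RPM elsewhere, while its partner miR-151-5p was lowest in ob/ob replicate 3, at 271.1 RPM. miR-30a-3p and miR-450a-5p were listed at 0 in ob/ob replicate 3 beside at least 58.4 and 17.1 RPM elsewhere, and miR-199b-3p at 0 in wt replicate 3 beside 73.7 to 203.2 RPM.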
